A study of Mus musculus with 8 samples.

Results

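The genes described here encode the proteasome, and they were taken from the deposited count table as every gene whose symbol is Psma, Psmb, Psmc, Psmd, Psme, Psmf or Psmg followed by a number. The rule, which rests on symbols and not on values, gave 48 of 24537 genes. They comprise 14 standard subunits of the 20S core, 3 immunosubunits, 2 tissue-specific 20S subunits, 17 subunits of the 19S cap, 3 chaperones of 19S assembly, 4 chaperones of 20S assembly, 4 activators of the Psme family and 1 inhibitor.

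Pancreatic tumours of 8 mice were dissociated, cells positive for EpCAM were sorted by FACS and their RNA was sequenced, with 1 library per tumour, to compare gene expression with and without Lifr, a subunit of the receptor for leukaemia inhibitory factor. All mice were on the FVB/NJ background and 44 to 49 days old, and all carried Pdx1-Cre, a recombinase driven by a promoter of the pancreatic epithelial lineage, and among the alleles it acts on were floxed Trp53 (f/f) and the luciferase reporter Rosa26 LSL-Luc. The 4 tumours labelled KO were Lifr f/f, so deletion was limited to cells in which Pdx1-Cre had acted. The 4 tumours labelled WT held 2 genotypes, with f/+ in replicates 1 and 2 and +/+ in replicates 3 and 4.

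The targeted gene went against the label, so the groups are named by their labels throughout. Levels are given as CPM, counts relative to library size after TMM scaling, unless stated otherwise. Lifr had 158, 205, 149.8 and 219.7 CPM in the tumours labelled KO, against 126, 93.7, 71.8 and 99.6 CPM in the tumours labelled WT. Its log2 fold change was 0.90 ± 0.19 (SE), with an edgeR adjusted p of 0.0121. The counts cover the whole kept transcript and do not check the floxed part alone. Whether the labels of the groups were exchanged could not be told from these files, and an exchange would turn every direction given here. Counts summed to between 14938875 and 22698340 per tumour. The sorted cells carried epithelial markers in every tumour, but less of them in the tumours labelled KO, where the summed level of 12 such genes ran from 3533 to 5030 CPM, against 6779 to 8956 CPM in the tumours labelled WT. Markers of macrophages went the other way, with a summed level of 12 genes of 22483 to 28478 CPM in the tumours labelled KO and 8923 to 15481 CPM in the tumours labelled WT.

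The proteasome degrades proteins that carry ubiquitin chains. Its 20S core is a barrel of stacked rings, with outer rings of alpha subunits and inner rings of beta subunits. The 3 beta subunits that cut are encoded by Psmb6 (beta1), Psmb7 (beta2) and Psmb5 (beta5). In leukocytes, and in other cells exposed to interferon gamma, newly built particles take up Psmb9 (beta1i), Psmb10 (beta2i) and Psmb8 (beta5i) in their place. Such immunoproteasomes yield peptides suited to MHC class I. The 19S cap unfolds substrates with a ring of Psmc ATPases and receives them through Psmd subunits. The core can also bind PA28 (Psme1 with Psme2), PA28 gamma (Psme3) or PA200 (Psme4).

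The stretches just upstream of the transcription starts of the 3 immunosubunit genes and of standard subunit genes are shown, because these genes parted in the comparison below. Psmb9 and Tap1, a subunit of the peptide transporter, start head to head on chromosome 17, with 225 bases between the starts, and Psmb8 lies in the same cluster. The sequences are from RefSeq on GRCm38.p6, a C57BL/6J reference and not the FVB/NJ strain of the mice, and run 5′ to 3′ on the gene's strand, ending at the base before the start. Capitals mark a match to 1 of 3 motifs, sought on both strands.
Psmb8, chr17:34197945-34198194, plus strand: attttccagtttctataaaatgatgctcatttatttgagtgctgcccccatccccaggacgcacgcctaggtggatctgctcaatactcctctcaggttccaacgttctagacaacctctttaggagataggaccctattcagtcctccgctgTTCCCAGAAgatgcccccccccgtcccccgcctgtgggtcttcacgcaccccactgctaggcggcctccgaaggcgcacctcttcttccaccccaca
Psmb9, chr17:34187331-34187555, minus strand: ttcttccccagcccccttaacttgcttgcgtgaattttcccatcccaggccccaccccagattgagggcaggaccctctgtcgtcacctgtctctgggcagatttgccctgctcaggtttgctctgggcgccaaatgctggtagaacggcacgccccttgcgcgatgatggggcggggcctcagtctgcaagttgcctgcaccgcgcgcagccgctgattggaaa
Psmb10, chr8:105938393-105938642, minus strand: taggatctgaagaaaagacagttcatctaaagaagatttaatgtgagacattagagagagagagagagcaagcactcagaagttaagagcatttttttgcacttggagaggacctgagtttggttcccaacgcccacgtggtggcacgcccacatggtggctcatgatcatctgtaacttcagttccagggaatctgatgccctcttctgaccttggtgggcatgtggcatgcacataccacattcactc
Psmb5, chr14:54617996-54618245, minus strand: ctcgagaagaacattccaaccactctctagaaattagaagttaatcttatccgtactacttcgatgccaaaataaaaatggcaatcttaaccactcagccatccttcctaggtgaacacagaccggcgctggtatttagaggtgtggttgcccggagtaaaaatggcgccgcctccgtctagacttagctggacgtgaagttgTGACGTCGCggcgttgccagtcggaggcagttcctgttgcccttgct
Psmb6, chr11:70525107-70525356, plus strand: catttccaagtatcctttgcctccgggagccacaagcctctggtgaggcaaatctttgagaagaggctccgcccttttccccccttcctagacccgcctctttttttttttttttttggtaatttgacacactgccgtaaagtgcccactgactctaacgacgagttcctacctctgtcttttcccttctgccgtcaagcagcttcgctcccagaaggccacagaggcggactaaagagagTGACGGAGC

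The motifs were the gamma-activated site bound by STAT factors (GAS, TTCNNNGAA), an interferon regulatory factor element (GAAA, any 2 bases, GAAA) and the antioxidant response element (ARE, TGACNNNGC). RefSeq promoter windows were held for 40 of the 48 genes. The windows run on past the start, but only the 250 bases upstream of it were searched. A GAS match lay in Psmb8, beginning 97 bases upstream of the start, and in Psmg1, so in 2 of 40 genes, against 7.02% of all 32851 windows. The counts out of 40 are of genes, while the percentages are of windows. The interferon regulatory factor element matched Psmb3, Psmd4 and Psmd9 (3 of 40, against 2.98% of all windows). The ARE letters matched Psmb5 (47 bases upstream), Psmb6 (9 bases upstream), Psmc6, Psmd12 and Psmd9, which was 5 of 40, against 10.2% of all windows. These matches describe the letters only.

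The 3 immunosubunits rose together in the tumours labelled KO, each about 1.7-fold, while 1 of the 31 genes of the standard core and cap was called. Of the 47 proteasome genes with enough counts to test, 5 were called higher at an edgeR adjusted p under 0.05 and none was called lower. In the same test 21.8% of all 14728 genes were called, 11.1% higher and 10.8% lower. The 5 genes were Psmb8, Psmb9, Psmb10, Psme1 and Psma4, and DESeq2 called the same 5 (21.2% of all genes). They were also the 5 with an unadjusted edgeR p under 0.05, beside 5300 of all 14728 genes tested. The 4 tumours of each group did not overlap for 9 of the 47 genes, a state shown by 25.5% of all genes tested (13.1% with KO above and 12.3% with KO below). Tumours labelled KO were above for the 5 called genes and Psmd10, and below for Psmb1, Psmc6 and Psmd12. The median log2 fold change was −0.026 over the 47 genes and 0.011 over all genes tested. Scaled to library totals in place of TMM, 17 proteasome genes were called, 3 higher (the immunosubunits) and 14 lower. Under that scaling 27.2% of all genes were called, 6.11% higher and 21.1% lower, and the median of all genes was −0.17.

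**Figure D1:**
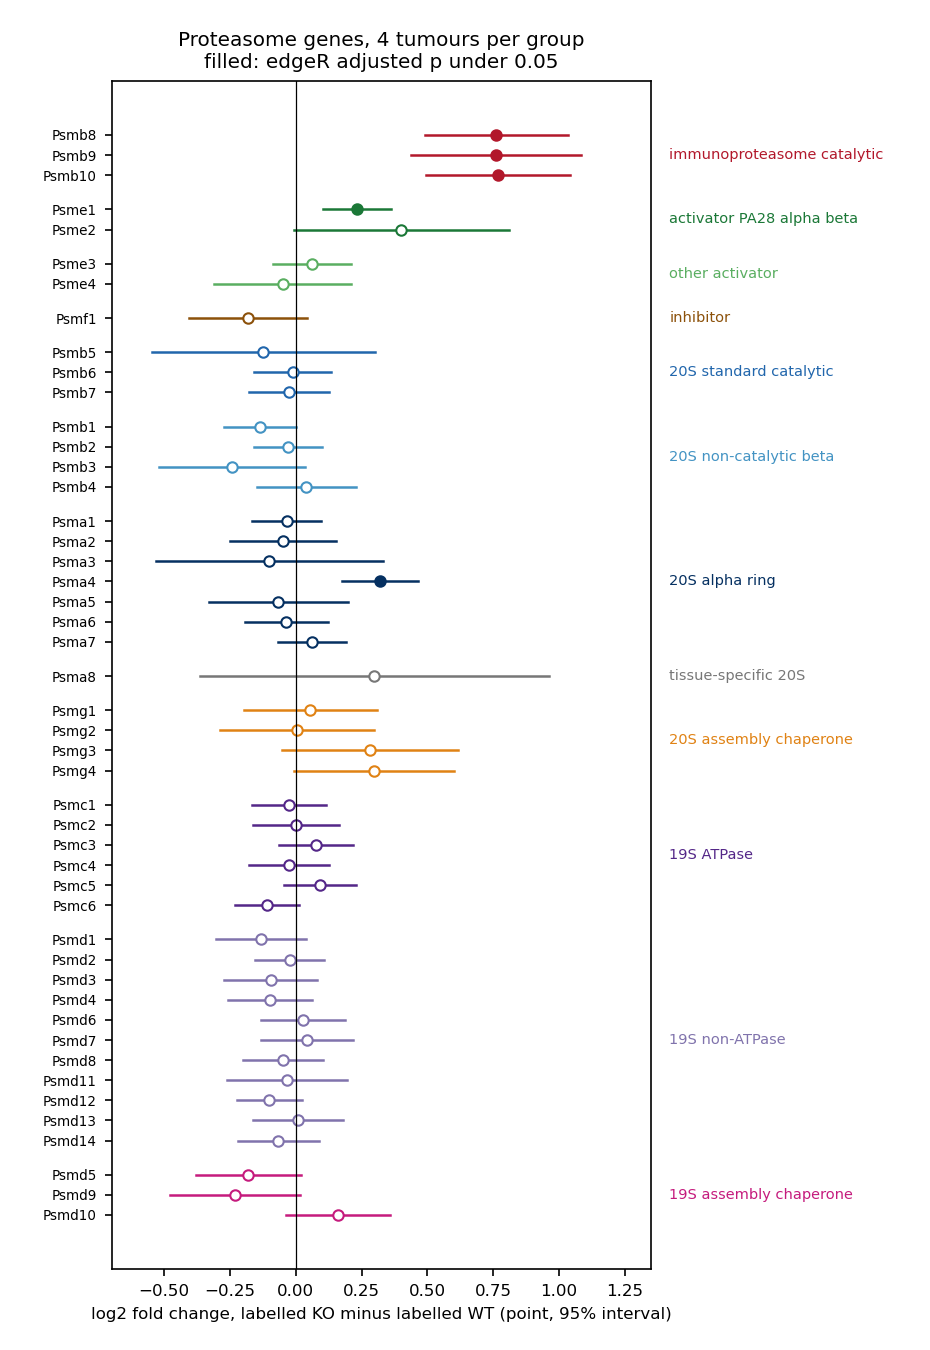
Log2 fold change of the 47 tested proteasome genes, tumours labelled KO minus tumours labelled WT (x axis), by gene and role (y axis), with points for the estimate, lines for the 95% interval and filled points for an edgeR adjusted p under 0.05 (4 tumours per group). The 3 immunosubunits sit at 0.76 to 0.77, and the 31 standard core and cap genes lie between −0.24 and 0.32.

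Psmb8, the beta5i subunit, lies at chr17:34198195-34201454 on the plus strand of mm10. It had 97.0, 111.3, 97.3 and 93.9 CPM in the tumours labelled KO, against 62.8, 48.4, 54.2 and 70.2 CPM in the tumours labelled WT. All tumours labelled KO lay above all tumours labelled WT. The log2 fold change was 0.76 ± 0.12 (SE; 1.70-fold), with an edgeR adjusted p of 0.00563.

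Psmb9, the beta1i subunit, lies in the same cluster, at chr17:34182099-34187330 on the minus strand. It had 27.5, 31.4, 31.7 and 23.9 CPM in the tumours labelled KO, against 17.7, 14.3, 15.2 and 20.4 CPM in the tumours labelled WT. The groups did not overlap, although the lowest tumour labelled KO, replicate 4, and the highest labelled WT, also replicate 4, came close. The log2 fold change was 0.76 ± 0.14, with an edgeR adjusted p of 0.00868. The counted transcripts of Psmb9 and Tap1 do not overlap.

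Psmb10, the beta2i subunit, is on another chromosome, at chr8:105935728-105938392 on the minus strand, and its estimate was close to those of Psmb8 and Psmb9. It had 63.2, 58.4, 63.0 and 52.2 CPM in the tumours labelled KO, against 31.9, 30.5, 33.8 and 42.8 CPM in the tumours labelled WT. Again replicate 4 was the lowest labelled KO and replicate 4 the highest labelled WT, without overlap. The log2 fold change was 0.77 ± 0.12, with an edgeR adjusted p of 0.00562.

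**Figure D2:**
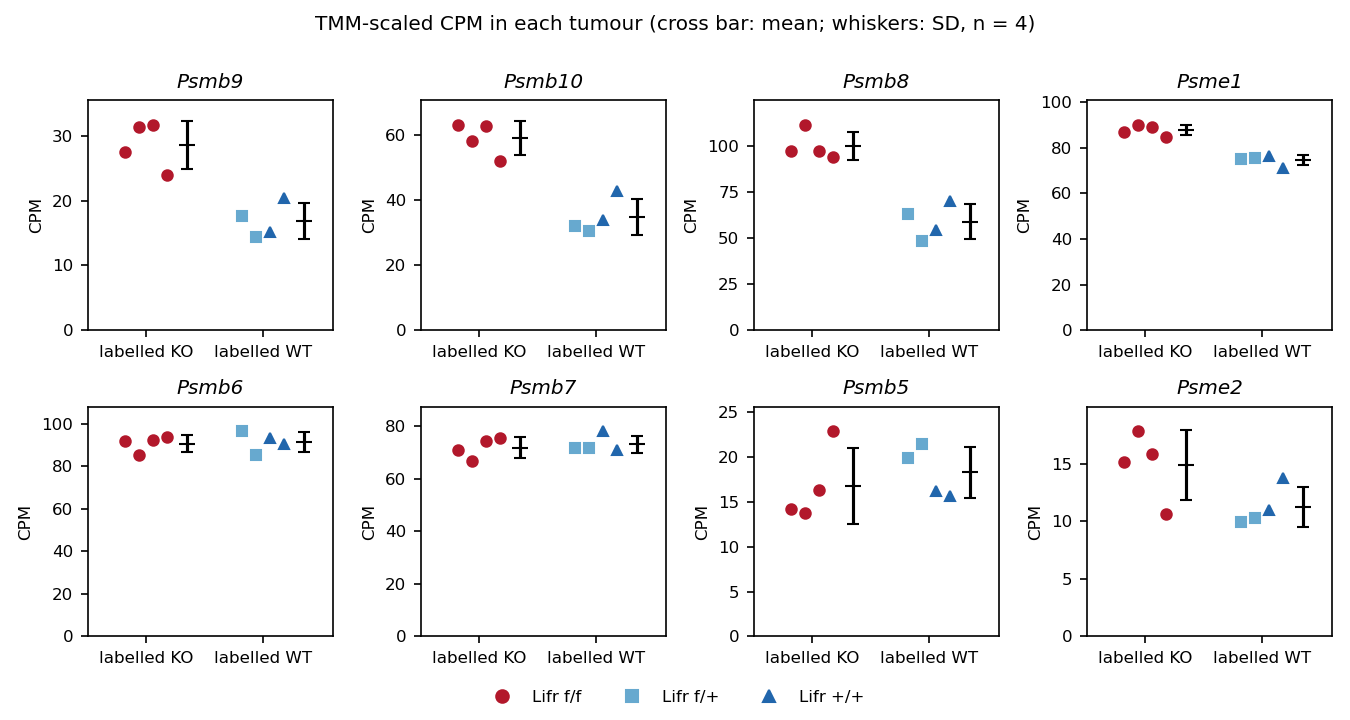
TMM-scaled CPM (y axis, from 0) in each tumour labelled KO and labelled WT (x axis) for the immunosubunits Psmb9, Psmb10 and Psmb8 above their standard counterparts Psmb6, Psmb7 and Psmb5, and for Psme1 above Psme2. Cross bars and whiskers are the mean and SD (n = 4), and symbols give the Lifr genotype. The groups are apart for Psmb9, Psmb10, Psmb8 and Psme1 and overlap for the other 4 genes.

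The standard counterparts gave no call. Psmb6 averaged 90.8 ± 3.8 CPM in the tumours labelled KO and 91.5 ± 4.7 CPM in the tumours labelled WT (SD, n = 4 each). Psmb7 averaged 71.8 ± 3.9 CPM in the tumours labelled KO and 73.1 ± 3.3 CPM in the tumours labelled WT. The 95% intervals of their log2 fold changes ran from −0.16 to 0.14 for Psmb6 and from −0.18 to 0.13 for Psmb7, both short of the immunosubunits' estimates. Psmb5 had 14.2, 13.8, 16.4 and 22.9 CPM in the tumours labelled KO, against 19.9, 21.5, 16.2 and 15.7 CPM in the tumours labelled WT. Its groups overlapped, and its log2 fold change of −0.12 ± 0.19 had an edgeR adjusted p of 0.673.

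Each immunosubunit was next set against the standard subunit whose position it takes, as a ratio of counts per kilobase within a tumour, which no scaling of libraries changes. The Psmb9 to Psmb6 ratio was 0.386, 0.475, 0.443 and 0.329 in the tumours labelled KO, against 0.236, 0.216, 0.209 and 0.291 in the tumours labelled WT. The Psmb10 to Psmb7 ratio was 0.678, 0.666, 0.645 and 0.526 in the tumours labelled KO, against 0.339, 0.323, 0.329 and 0.458 in the tumours labelled WT. Neither ratio overlapped between the groups. They were 1.71-fold and 1.74-fold higher in the tumours labelled KO (two-sided exact permutation p = 0.0286 for each, the smallest that 4 against 4 allows, and 0.0429 after Benjamini-Hochberg adjustment over the 3 ratios).

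The Psmb8 to Psmb5 ratio was 4.88, 5.76, 4.23 and 2.92 in the tumours labelled KO, against 2.25, 1.604, 2.38 and 3.19 in the tumours labelled WT. Replicate 4 labelled KO fell below replicate 4 labelled WT, so the groups overlapped. The difference of 0.92 on the log2 scale (1.89-fold) did not pass the test (two-sided exact permutation p = 0.0571, also 0.0571 after adjustment over the 3 ratios). Taken as shares of the transcripts for a position per kilobase, the immunosubunit made up 28.9% ± 3.3 at beta1 in the tumours labelled KO and 19.2% ± 2.4 in the tumours labelled WT (SD, n = 4 each). At beta2 the share was 38.5% ± 2.7 in the tumours labelled KO and 26.5% ± 3.3 in the tumours labelled WT. At beta5 it was 80.9% ± 4.6 in the tumours labelled KO and 69.4% ± 6.0 in the tumours labelled WT, but the value for Psmb5 itself is uncertain (below). These are shares of RNA, not of protein.

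**Figure D3:**
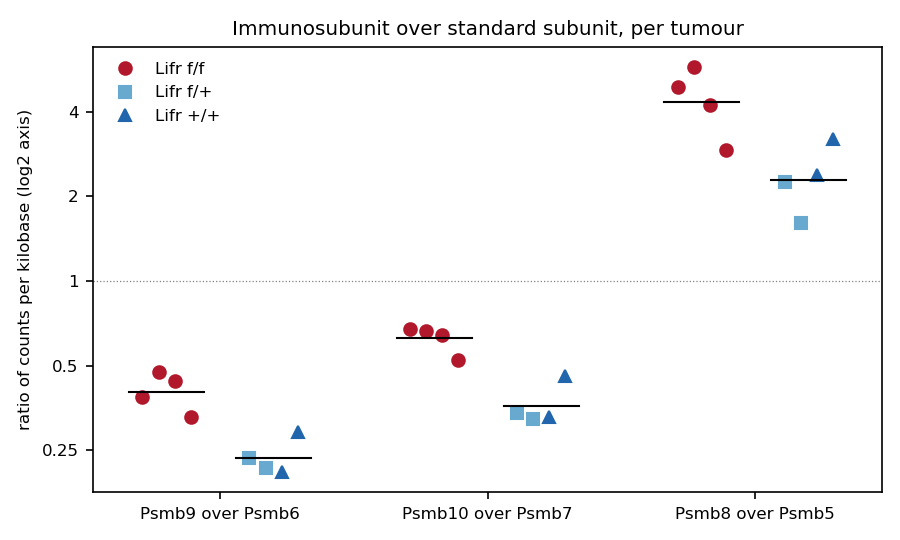
Ratio of each immunosubunit to its standard subunit in counts per kilobase (y axis, log2 scale) for each tumour, with the tumours labelled KO (Lifr f/f) left of those labelled WT (f/+ and +/+) in each of the 3 pairs, and bars at the mean of the log2 ratios. The groups are apart for Psmb9 over Psmb6 and Psmb10 over Psmb7 and overlap for Psmb8 over Psmb5, where replicate 4 labelled KO is at 2.92 and replicate 4 labelled WT at 3.19.

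Other cell types' RNA moved with the immunosubunits, which leukocytes are known to express. Of 12 macrophage genes 11 were called higher, and of 8 genes shared by leukocytes 7 were called higher, beside 11.1% of all genes. The leukocyte genes had a summed level of 3504 to 4139 CPM in the tumours labelled KO and 1619 to 2454 CPM in the tumours labelled WT. Among the tumours labelled WT, replicate 4 had the highest sum of both lists and the highest Psmb8, Psmb9 and Psmb10. Among the tumours labelled KO the order was mixed and was not tested. Replicate 2 had the highest sum of both lists and the highest Psmb8. Replicate 3 had the lowest sum of both lists and the highest Psmb9, at 31.7 CPM beside 31.4 CPM in replicate 2. Replicate 4 had the lowest Psmb8, Psmb9 and Psmb10. Of 12 epithelial genes 10 were called lower and none higher, beside 10.8% and 11.1% of all genes. With libraries scaled to the summed leukocyte genes, the log2 fold changes were −0.047 for Psmb8, −0.048 for Psmb9 and −0.043 for Psmb10, and none was called (edgeR adjusted p = 0.767, 0.813 and 0.820 in that order; 74.5% of all genes were called). Scaled to the summed epithelial genes they were 1.63, 1.64 and 1.63, with 75.3% of all genes called. Both scalings shift all genes alike by construction, and put the median of all genes at −0.82 (leukocyte) and 0.89 (epithelial). Relative to that median the 3 immunosubunits stayed at 0.74 to 0.78, so neither scaling can tell how much leukocyte RNA contributed. The part of leukocyte RNA in the immunosubunit difference was not tested. In RNA of sorted populations, more cells of a type and more RNA per cell cannot be told apart.

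No marker gene was at 0 in all 8 tumours. Of the remaining marker lists, the neutrophil list alone had sums that did not overlap between the groups. Csf3r carried that gap, at 63.2 ± 12.9 CPM in the tumours labelled KO and 28.9 ± 7.9 CPM in the tumours labelled WT (SD, n = 4 each). It was the 1 gene called of the 5 tested in that list, and the other 4 overlapped between the groups. Batf3 was the 1 gene called of 7 in the dendritic cell list and Dpt the 1 of 8 in the fibroblast list. Both were higher in the tumours labelled KO without overlap, and 11.1% of all genes were called higher. No gene of the B cell, endothelial or acinar lists was called. T and NK cell genes summed to 29.7 to 61.5 CPM in the tumours labelled KO and 17.1 to 36.3 CPM in the tumours labelled WT, with none of the tested genes called. Ifng, the interferon gamma gene, was listed at 0 or below 0.1 CPM in every tumour. B cell genes summed to 40.4 to 77.6 CPM in the tumours labelled KO and 30.8 to 52.0 CPM in the tumours labelled WT, and dendritic cell genes to 50.3 to 96.6 CPM in the tumours labelled KO and 20.6 to 74.2 CPM in the tumours labelled WT. Neutrophil genes summed to 70.03 to 121 CPM in the tumours labelled KO and 42.8 to 67.9 CPM in the tumours labelled WT, endothelial genes to 27.8 to 35.9 CPM in the tumours labelled KO and 22.5 to 44.6 CPM in the tumours labelled WT, and fibroblast genes to 759 to 4228 CPM in the tumours labelled KO and 404 to 1515 CPM in the tumours labelled WT. Genes of acinar cells, the enzyme-secreting cells of the pancreas, varied widely, from 1614 to 37521 CPM in the tumours labelled KO and from 376 to 7710 CPM in the tumours labelled WT. Leaving out KO replicate 1 and WT replicate 2, the richest in acinar RNA of their groups, Psmb8, Psmb9 and Psmb10 were called (with 12.9% of all genes). Psma4 and Psme1 were not called with fewer tumours, but their log2 fold changes of 0.32 and 0.24 were about as large as with all 8.

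For PA28, the activator induced with the immunosubunits by interferon gamma in many cells, the estimates were smaller and 1 of its 2 genes was called. Its difference from the immunosubunits was not tested. Psme1, its alpha subunit, had 87.1, 90.1, 89.2 and 85.0 CPM in the tumours labelled KO, against 75.3, 75.8, 76.4 and 71.4 CPM in the tumours labelled WT. The groups did not overlap, and each spanned about 5 CPM. The log2 fold change was 0.23 ± 0.06 (1.18-fold), with an edgeR adjusted p of 0.0214. It did not pass when scaled to library totals (log2 fold change 0.05, edgeR adjusted p = 0.580) or without KO replicate 1, 2 or 3 (0.0505 to 0.0642), although on leaving out any single tumour the log2 fold change stayed between 0.21 and 0.24. Psme1 lies at chr14:55578494-55581527 (mm10, plus strand) and overlaps Emc9 on the opposite strand.

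Psme2, the beta subunit, had 15.1, 17.8, 15.8 and 10.6 CPM in the tumours labelled KO, against 9.90, 10.3, 10.98 and 13.7 CPM in the tumours labelled WT. Replicate 4 of each group made them overlap. The log2 fold change of 0.40 ± 0.18 was not called (edgeR adjusted p = 0.145), and without KO replicate 4 it was 0.52 and was called (0.0448). A stretch of 794 bases of the Psme2 transcript is 99.4% identical to that of Psme2b at another locus, so its level is uncertain.

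The activators that do not depend on interferon gamma gave no call. Psme3 averaged 130.0 ± 7.4 CPM in the tumours labelled KO and 124.5 ± 3.8 CPM in the tumours labelled WT (SD, n = 4 each), with a 95% interval of the log2 fold change from −0.085 to 0.21. Psme4, the largest of the activators, had 137, 156, 149 and 176 CPM in the tumours labelled KO, against 189, 143, 163 and 145 CPM in the tumours labelled WT. Its groups overlapped widely, and its interval ran from −0.31 to 0.21. Psmf1, the inhibitor PI31, had 30.5, 30.8, 29.4 and 38.0 CPM in the tumours labelled KO, against 38.3, 35.9, 38.0 and 33.9 CPM in the tumours labelled WT. KO replicate 4 stood among the tumours labelled WT, and the log2 fold change of −0.18 ± 0.10 was not called (edgeR adjusted p = 0.218); without that replicate it was −0.28 and was called (0.0419).

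The standard core and cap, 31 genes, had 1 gene called higher and none lower, beside 11.1% and 10.8% of all genes. Their median log2 fold change was −0.032. Summed over these genes the level was 2692 to 2789 CPM in the tumours labelled KO and 2697 to 2821 CPM in the tumours labelled WT. The genes varied little among tumours. Their median coefficient of variation was 4.98% in the tumours labelled KO and 4.61% in the tumours labelled WT, against 13.6% and 14.5% over all genes tested, though a gene's depth also bears on this value. For the immunosubunits it was 8.74% in the tumours labelled KO and 16.2% in the tumours labelled WT. Scaled to library totals, 11 of the 31 genes were called lower and none higher, beside 21.1% and 6.11% of all genes. The median log2 fold change of the 31 genes was then −0.21, which lay −0.046 from the median of all genes under that scaling.

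As a percentage of the geometric mean of the 31 genes in the same tumour, per kilobase, Psmb8 stood at 158% ± 14.1 in the tumours labelled KO and 90.9% ± 13.6 in the tumours labelled WT (SD, n = 4 each). Psmb10 stood at 90.1% ± 9.0 in the tumours labelled KO and 51.7% ± 7.8 in the tumours labelled WT. Psmb9 stood at 69.0% ± 9.6 in the tumours labelled KO and 39.7% ± 6.0 in the tumours labelled WT. Psme1 stood at 175% ± 6.9 in the tumours labelled KO and 145.5% ± 5.9 in the tumours labelled WT.

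The alpha ring forms the gate of the core, and among its 7 genes Psma4 (alpha3) alone was called. It had 64.0, 65.9, 64.4 and 59.3 CPM in the tumours labelled KO, against 48.8, 50.7, 53.4 and 50.02 CPM in the tumours labelled WT. The groups did not overlap, and the log2 fold change was 0.32 ± 0.06 with an edgeR adjusted p of 0.0107. Scaled to library totals it was 0.14 and was not called (0.166). Psma4 shares a near-identical stretch with a gene at another locus and overlaps AY074887 on the opposite strand, so its count is uncertain. Psma3 (alpha7), lowest in fold change among the 7, averaged 7.195 ± 1.39 CPM in the tumours labelled KO and 7.70 ± 1.21 CPM in the tumours labelled WT (SD, n = 4 each), which gave a log2 fold change of −0.10 ± 0.19.

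Among the 4 beta subunits that do not cut, none was called. Psmb1 (beta6) had 92.6, 103.6, 95.7 and 101 CPM in the tumours labelled KO, against 105, 109, 109 and 108 CPM in the tumours labelled WT. Every tumour labelled KO was below every tumour labelled WT, by a margin that gave a log2 fold change of −0.14 ± 0.06 (edgeR adjusted p = 0.144). Psmb3 (beta3) averaged 12.7 ± 1.4 CPM in the tumours labelled KO and 15.04 ± 1.48 CPM in the tumours labelled WT (SD, n = 4 each), the lowest fold change of the 31 genes at −0.24 ± 0.12 (edgeR adjusted p = 0.190).

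In the 19S cap none of the 17 genes taken by symbol was called by edgeR or DESeq2, which called 21.8% and 21.2% of all genes. Shfm1, a small subunit of the 19S lid outside the symbol rule, was called higher by edgeR (below). None of the 17 had an unadjusted edgeR p under 0.05, beside 5300 of all 14728 genes tested. Log2 fold changes ran from −0.13 to 0.091, and no 95% interval reached beyond −0.30 or 0.23. Among the 6 ATPases, Psmc6 (Rpt4) had 82.3, 86.1, 84.0 and 84.9 CPM in the tumours labelled KO, against 90.6, 92.8, 89.0 and 91.3 CPM in the tumours labelled WT. The groups did not overlap, but the difference was small, at −0.11 ± 0.05 on the log2 scale (edgeR adjusted p = 0.178). Psmc5 (Rpt6) averaged 87.7 ± 3.4 CPM in the tumours labelled KO and 82.4 ± 3.0 CPM in the tumours labelled WT (SD, n = 4 each), which gave a log2 fold change of 0.09 ± 0.06.

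Among the 11 other cap subunits, Psmd12 (Rpn5, of the lid) had 76.2, 75.5, 74.8 and 71.8 CPM in the tumours labelled KO, against 78.1, 81.2, 80.2 and 80.4 CPM in the tumours labelled WT. The groups were apart by less than 2 CPM, with a log2 fold change of −0.10 ± 0.05 (edgeR adjusted p = 0.220). Psmd1 (Rpn2, a scaffold of the base) averaged 169.96 ± 8.46 CPM in the tumours labelled KO and 186 ± 12.8 CPM in the tumours labelled WT (SD, n = 4 each), which gave a log2 fold change of −0.13 ± 0.08 that was not called (edgeR adjusted p = 0.244).

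None of the assembly chaperones was called. Of those for the 19S base, Psmd9 averaged 21.3 ± 2.3 CPM in the tumours labelled KO and 25.04 ± 2.48 CPM in the tumours labelled WT (SD, n = 4 each), which gave a log2 fold change of −0.23 ± 0.11 (edgeR adjusted p = 0.159). Psmd5 averaged 38.3 ± 1.1 CPM in the tumours labelled KO and 43.4 ± 4.6 CPM in the tumours labelled WT, a log2 fold change of −0.18 ± 0.09 (0.175). All 4 chaperones of the 20S core had estimates above 0. The smallest p among them belonged to Psmg4, with 9.11, 8.73, 7.36 and 8.89 CPM in the tumours labelled KO, against 6.51, 6.38, 7.35 and 7.54 CPM in the tumours labelled WT. Its groups overlapped slightly, and its log2 fold change of 0.30 ± 0.13 had an edgeR adjusted p of 0.146. Psmg3 followed, at 0.28 ± 0.15 (0.205).

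The tissue-specific subunits were barely present. Psmb11, the beta5t subunit of thymic epithelium, had no count in any of the 8 tumours. That allows a level of up to 0.132 to 0.201 CPM depending on the tumour (3 counts, counting error only), here relative to library totals without TMM scaling. Psma8, the alpha subunit of the testis, had 11 to 33 counts per tumour and a log2 fold change of 0.30 ± 0.29 (edgeR adjusted p = 0.499).

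Levels per kilobase differed widely among the 14 standard 20S genes, although the particle holds their products in equal numbers. The mean over the 8 tumours ran from 3.12 RPKM (TMM-scaled CPM per kilobase of transcript) for Psma3 to 118 RPKM for Psmb4. The transcripts of 5 genes (Psma3, Psma4, Psma5, Psmb5 and Psmb3) hold a stretch of at least 200 bases that is at least 95% identical to an annotated gene at another locus, and these had 3.12 to 52.6 RPKM, with a median of 19.2. The 9 genes without such a stretch had 75.6 to 118 RPKM, with a median of 91.1, so the ranges did not overlap. Genes overlapping a member at its own locus were left out of this match after the values had been seen. Over all 48 proteasome genes 9 hold such a stretch, with Psmc1, Psmd2, Psmd11 and Psme2 the others. In the cap the ranges did overlap. Psmc1 had 49.5 RPKM and Psmd2 had 52.6 RPKM, between Psmd12 (45.2 RPKM) and Psmd1 (55.1 RPKM), which hold no such stretch. Psmd11 was the lowest of the cap at 18.6 RPKM. How the counting treated reads that align to both loci was not tested, so the low level of Psmb5 makes the beta5 share and ratio uncertain, while neither Psmb6, Psmb7 nor any immunosubunit has such a stretch.

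**Figure D4:**
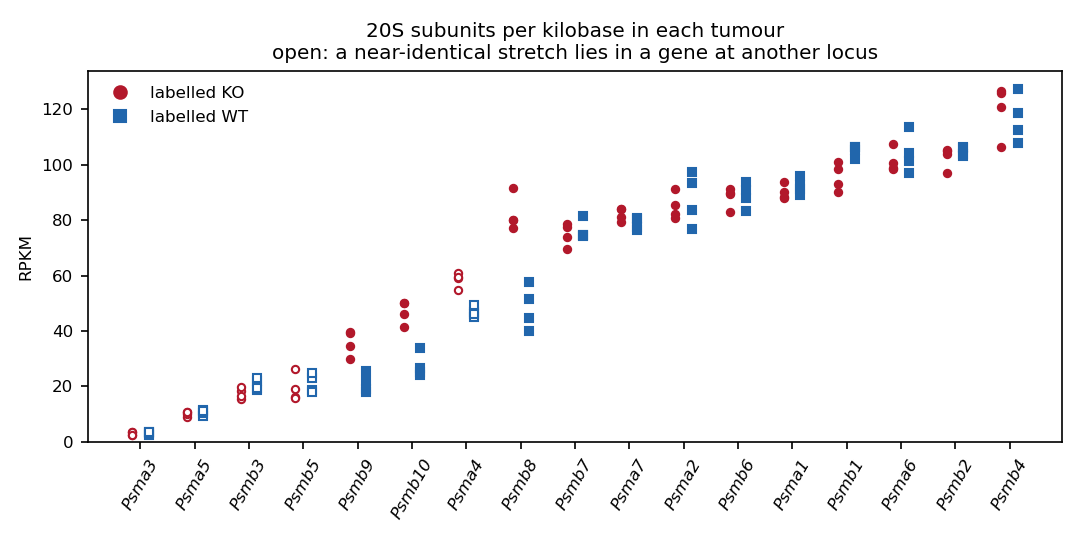
RPKM (y axis, from 0) of the 14 standard 20S genes and the 3 immunosubunits (x axis, in order of mean level) in each tumour labelled KO (circles, left) and labelled WT (squares, right). Open symbols mark the 5 genes with a near-identical stretch at another locus, which all lie below the 9 other standard genes, and the immunosubunits are higher in the tumours labelled KO.

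The difference in the immunosubunits was also read against each genotype of the tumours labelled WT, in 1 fit of 3 genotypes whose comparisons share the tumours labelled KO. Against the f/+ tumours the log2 fold changes were 0.85 for Psmb8, 0.84 for Psmb9 and 0.93 for Psmb10, and these and Psma4 were the 4 proteasome genes called by edgeR (13.3% of all genes). Against the +/+ tumours they were 0.69, 0.69 and 0.63, with edgeR adjusted p of 0.0432, 0.0618 and 0.0378, so Psmb8 and Psmb10 were called and Psmb9 was not (6.79% of all genes called). Between f/+ and +/+ tumours no proteasome gene was called by edgeR (0.00654% of all genes called). None of the 47 tested had an unadjusted edgeR p under 0.05, beside 782 of all 15284 genes tested. The estimates for Psmb8, Psmb9 and Psmb10 were −0.16, −0.15 and −0.30, with 2 tumours on each side.

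Of 20 further genes for proteasome assembly, shuttling, regulation and transcription, 1 was called higher and 1 lower, beside 11.1% and 10.8% of all genes, with a median log2 fold change of 0.007. Shfm1, also known as Sem1 and a small subunit of the 19S lid, averaged 124 ± 7.9 CPM in the tumours labelled KO and 93.99 ± 3.26 CPM in the tumours labelled WT (SD, n = 4 each), which gave a log2 fold change of 0.40 ± 0.07 (edgeR adjusted p = 0.00670). Txnl1, a thioredoxin-like protein bound to the 19S cap, averaged 85.5 ± 3.9 CPM in the tumours labelled KO and 99.6 ± 3.3 CPM in the tumours labelled WT, a log2 fold change of −0.22 ± 0.06 (0.0339). That call was lost on leaving out any single tumour, while the log2 fold change stayed between −0.24 and −0.20.

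Most of the genes that carry proteasome products to the cell surface moved with the immunosubunits. Of 12 peptide loading genes 8 were called higher and none lower, beside 11.1% of all genes called higher. Their median log2 fold change was 0.59, against 0.011 over all genes tested. The 4 not called were Canx (log2 fold change 0.33), Calr (0.32), Tapbpl (0.21) and Pdia3 (0.081). Tap1, the neighbour of Psmb9, had 54.8, 55.1, 58.8 and 56.7 CPM in the tumours labelled KO, against 41.5, 30.1, 23.7 and 31.6 CPM in the tumours labelled WT, with a log2 fold change of 0.83 ± 0.15 (edgeR adjusted p = 0.00809). Tap2, the partner of Tap1 in the transporter, rose by 0.51 ± 0.13 on the log2 scale (0.0257). That call was lost in 4 of the 8 fits that left out 1 tumour, with log2 fold changes of 0.41 to 0.60 over all 8. Erap1, which trims peptides, rose by 0.67 ± 0.09, and B2m, the light chain of MHC class I, by 1.16 ± 0.16 (edgeR adjusted p = 0.00440 each). The chaperone Tapbp rose by 0.51 ± 0.09 (0.00733) and the heavy chain H2-K1 by 1.02 ± 0.18 (0.00744). Leukocytes express these genes as well, and the part of the rise in leukocyte markers in them was not tested.

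Of 12 genes of the interferon gamma response 6 were called higher and none lower, beside 11.1% and 10.8% of all genes, with a median log2 fold change of 0.46. The 6 not called were Gbp2 (log2 fold change 1.10), Ciita (0.54), Ifngr1 (0.079), Cd274 (−0.018), Jak2 (−0.048) and Socs1 (−0.17), so the list did not move as a whole. Cxcl10, a chemokine, had 18.5, 10.0, 17.6 and 19.6 CPM in the tumours labelled KO, against 4.32, 4.05, 3.14 and 3.48 CPM in the tumours labelled WT, a log2 fold change of 2.13 ± 0.23 (edgeR adjusted p = 0.00440). The kinase Jak1 rose by 0.45 ± 0.09 (0.0119), the transcription factor Irf1 by 0.45 ± 0.09 (0.0122) and the receptor chain Ifngr2 by 0.48 ± 0.11 (0.0192). The call of Ifngr2 was lost in 3 of the 8 fits that left out 1 tumour, with log2 fold changes of 0.41 to 0.55 over all 8. Scaled to the summed leukocyte genes, Cxcl10 was at 1.31 and Jak1, Irf1 and Ifngr2 were at −0.39, −0.37 and −0.36. That scaling by construction shifts all genes alike and put their median at −0.82. It cannot move a gene by much against that median, so it cannot tell how much leukocyte RNA contributed.

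**Figure D5:**
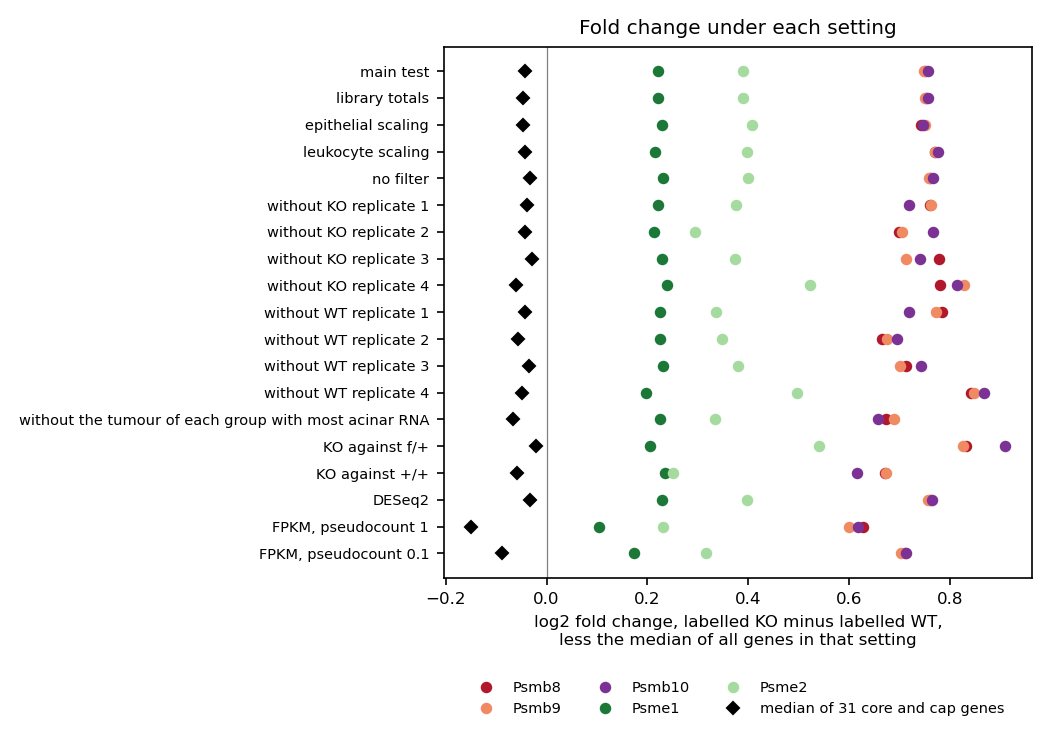
Log2 fold change, tumours labelled KO minus tumours labelled WT, less the median of all genes under the same setting (x axis), for Psmb8, Psmb9, Psmb10, Psme1, Psme2 and the median of the 31 standard core and cap genes, under each normalization, unit and choice of tumours tried (y axis). Psmb8, Psmb9 and Psmb10 lie from 0.60 to 0.91 and the core and cap median from −0.15 to −0.022. The core and cap median lay below the 3 immunosubunits in every setting drawn, but a scaling of libraries cannot move this gap by much.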

How the data were processed

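Sorted EpCAM-positive cells of 8 tumours were measured by RNA sequencing, and groups were taken from sample titles and genotype labels. Replicates were numbered in listed order, which pairs no tumours. Per the submitters' processing notes the tools were STAR 2.4.0k, HOMER, FastQC 0.11.2 and edgeR 3.6.8, and the build was mm10; their roles are not given. The authors deposited raw counts, which per the file headers are reads in exons of 1 kept RefSeq transcript per gene, counted by HOMER without normalization. They also deposited FPKM values per kilobase of the kept transcript, normalized to library size per the file headers. The kept transcript is the same in both tables for 42 of the 48 genes. Strandedness of the libraries is not given in the sources used here.

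The test was edgeR's quasi-likelihood test (edgeR 4.0.16 in R 4.3.3) on TMM-scaled counts kept by filterByExpr at a minimum count of 10 and a total of 15, with Benjamini-Hochberg adjustment over 14728 genes and a threshold of 0.05. Scaling factors by TMM lay between 0.890 and 0.965 for libraries labelled KO, and between 1.05 and 1.10 for libraries labelled WT. Alternatives used DESeq2 1.42.0, limma 3.58.1 on log2 FPKM with a pseudocount of 1 or 0.1, other scalings, no filter and fewer tumours. Exact permutation tests used SciPy 1.17.1, and copies were sought with BLAST 2.17.0 in GENCODE M21 transcripts. The edgeR test was also run on counts simulated from the levels and spread of these data. The members and gene lists were chosen with earlier results of these data known. Genes were named by a rule: immunosubunits, their counterparts, activators, the inhibitor and tissue-specific subunits always; from other roles up to 4 called members and those of extreme fold change, or the 2 with the smallest p; from other lists up to 4 called genes, with Tap1 and Tap2. Others are named as members of a count, a marker list or a match. Paaf1 and Trac had no row under those symbols. One Cre-dependent allele that all mice share is not reported here.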

Additional observations from a re-analysis of the deposited data

Results flagged for a closer look

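In 7 of 100 groups of 4 tumours examined, 1 tumour stood apart by more than Dixon's 95% critical value (its gap to the nearest tumour over the range of the group). Chance gives about 1 in 20 groups. In the tumours labelled KO these were Psmf1 (0.838, replicate 4 high), Psmb2 (0.847, replicate 3 low) and Psmc4 (0.841, replicate 2 low). In the tumours labelled WT they were Psmb7 (0.913, replicate 3 high), Psmc2 (0.869, replicate 4 high), Psmd14 (0.893, replicate 2 low) and the log2 ratio of Psmb10 to Psmb7 (0.863, replicate 4 high). The ratio of replicate 4 was 0.458, against 0.323 to 0.339 in the other tumours labelled WT, and without that tumour the log2 difference between the groups was 0.92.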

How the results depend on the processing

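The number of proteasome genes called was 5 and moved with the scaling: 17 with library totals (3 higher, 14 lower), 47 with libraries scaled to epithelial genes (all higher), 42 scaled to leukocyte genes (all lower), 19 on FPKM with a pseudocount of 1 (3 higher, 16 lower; 18.6% of all genes called) and 9 with 0.1 (3 higher, 6 lower; 16.3%). These settings moved the median of all genes to −0.17, 0.89, −0.82, −0.048 and −0.12 in that order. Without the tumours richest in acinar RNA 3 were called, against +/+ tumours alone 2, and on leaving out 1 tumour 4 to 7 (11.7% to 21.7% of all genes); no filter (15.1% of all genes) and DESeq2 gave 5. Relative to the median of all genes, Psmb8, Psmb9 and Psmb10 stayed at 0.60 to 0.91 under every setting, but a scaling of libraries cannot move such a difference by much, so only the changes of tumours, filter, tool and unit bear on it. On leaving out 1 tumour the log2 ratio difference ran from 0.70 to 0.88 for Psmb9 over Psmb6, 0.75 to 0.92 for Psmb10 over Psmb7 and 0.75 to 1.10 for Psmb8 over Psmb5. With 3 against 4 tumours no exact p can fall below 0.0571.

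Epithelial scaling turned to positive log2 fold changes Psmb5 (0.73), Psmb6 (0.86), Psmb7 (0.85), Psme4 (0.82), Psmf1 (0.68), Psma3 (0.78), Psmb1 (0.75), Psmb3 (0.62), Psmc6 (0.77), Psmd12 (0.78), Psmd1 (0.74), Psmd9 (0.63), Psmd5 (0.70) and Txnl1 (0.66). Leukocyte scaling turned to negative ones Psmb8 (−0.047), Psmb9 (−0.048), Psmb10 (−0.043), Psme1 (−0.60), Psme2 (−0.42), Psma8 (−0.51), Psme3 (−0.77), Psma4 (−0.51), Psmc5 (−0.74), Psmg4 (−0.53), Psmg3 (−0.54), Shfm1 (−0.43), Erap1 (−0.15), Tapbp (−0.31), Jak1 (−0.39), Irf1 (−0.37), Ifngr2 (−0.36) and Tap2 (−0.29). Both scalings assume by construction that 1 cell type's RNA is constant. No paired analysis was possible because the labels give animal numbers that no tumours share.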

Other observations

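Psme2b, a near-identical copy of Psme2 at another locus (99.4% over the longest match), was looked at after its values had been seen. It had 46.3, 57.3, 52.0 and 38.2 CPM in the tumours labelled KO, against 35.5, 34.4, 34.8 and 43.1 CPM in the tumours labelled WT. As for Psme2, KO replicate 4 was the lowest of its group and WT replicate 4 the highest of its own, so the groups overlapped. The log2 fold change was 0.39 ± 0.13 (edgeR adjusted p = 0.0711), beside 0.40 ± 0.18 for Psme2.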
